A study of Mus musculus with 15 samples.

Results

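Expression of 10 heat shock genes was described in single mouse proximal tubules and in whole kidney: Hspa1a, Hspa1b, Hsph1, Dnajb1, Hspa8, Hsp90aa1, Hspb1, Hspd1, Hspe1 and Hsf1. They were taken by gene symbol from a table of 47069 genes. The set was chosen by the measured TPM of Hspa1a and Hspa1b in tubule sets m2 and m1, which had been seen to differ, so the values of both genes in the tubule sets are given as a description with no test. The table came from an RNA-Seq study of how cell-type selective transcripts are represented in whole-kidney data. It held 12 libraries of single microdissected tubules labelled PTS2, in sets m1, m2 and m3 of 4 libraries each, and 3 libraries of whole kidney. All came from male C57BL/6 mice aged 2 months, with no treatment or genetic change named for any group, and RNA was amplified with a kit for very low input. The labels do not say what m stands for, nor whether the libraries of a set came from separate animals, so p-values measure only the spread between these libraries. Values are TPM, shares of all transcripts scaled to transcript length and to a fixed total, from which the number of reads behind a library cannot be recovered.

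Heat shock proteins are molecular chaperones that bind unfolded protein chains and help them fold, refold or be degraded. HSP70 proteins work in cycles driven by ATP, with J proteins bringing clients and nucleotide exchange factors releasing them, while HSP90 acts on late folding steps, small heat shock proteins hold unfolded chains, and HSP60 with HSP10 folds proteins inside mitochondria. When unfolded protein builds up, the transcription factor HSF1 forms trimers, binds heat shock elements made of repeated GAA units in alternating orientation, and induces the stress-responsive genes strongly. In the kidney, heat shock proteins are known to rise after ischemia and, in the inner medulla, with high osmolality.

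The libraries were checked against 41 marker genes. In the 12 PTS2 libraries the summed TPM of 7 proximal tubule markers lay between 56437 and 77546, against 39721 to 41056 in whole kidney. Most of this sum was Kap, with means of 56229 TPM in PTS2 and 29805 in kidney. Of the 7, limma called 3 higher in PTS2 and 0 lower (adjusted p under 0.05). The mean of Slc34a1 was lower in PTS2, at 3351 against 4544 TPM. Markers of other cells summed to far less in PTS2 than in kidney: podocyte markers to 0.77 to 2.45 against 74.7 to 96.2, distal convoluted tubule markers to 0 to 0.55 against 202 to 212, endothelial markers to 20.1 to 81.6 against 251 to 261, and macrophage markers to 2.76 to 13.3 against 68.8 to 94.4. Both libraries that stood apart were in m3. In m3 replicate 3, markers of the thick ascending limb summed to 1441 TPM, against a median of 10.7 over the PTS2 libraries and 2425 to 2723 in whole kidney. In m3 replicate 4, the proximal tubule markers summed to the lowest value, 56437 TPM, against 63813 to 77546 in the other 11 PTS2 libraries. The low sum came from Kap, at 37424 TPM there against a PTS2 mean of 56229. Slc34a1 (5082 TPM) and Slc27a2 (11041 TPM) were higher there than in any other PTS2 library. Slc7a13, Slc22a6, Lrp2 and Cubn lay inside the range of the others. The calls that rest on m3 are therefore also given without each of these libraries.

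The 10 genes covered a wide range of abundance, and their order in the tubule was headed by the constitutive HSP70. Together they made up 2992 ± 252 TPM (SD, n = 12) in PTS2, which was 0.299% of all TPM, and 3101 ± 249 TPM (SD, n = 3) in whole kidney. Hspa8 alone held 52.6% of the sum in PTS2, followed by Hspe1 with 15.1%, Hsp90aa1 with 12.6% and Hspd1 with 12.3%. Hsph1 held 3.22% and Dnajb1 2.19%, while Hspa1b, Hsf1, Hspa1a and Hspb1 each held less than either. The ranges over the 12 libraries of neighbours in this order overlapped, except that Hspa8 lay above Hspe1 and Hspd1 above Hsph1 in every library. In whole kidney the order differed in that Hsp90aa1 stood second and Hspb1 had moved from the last place to above Hsf1 and Hspa1a.

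**Figure D1:**
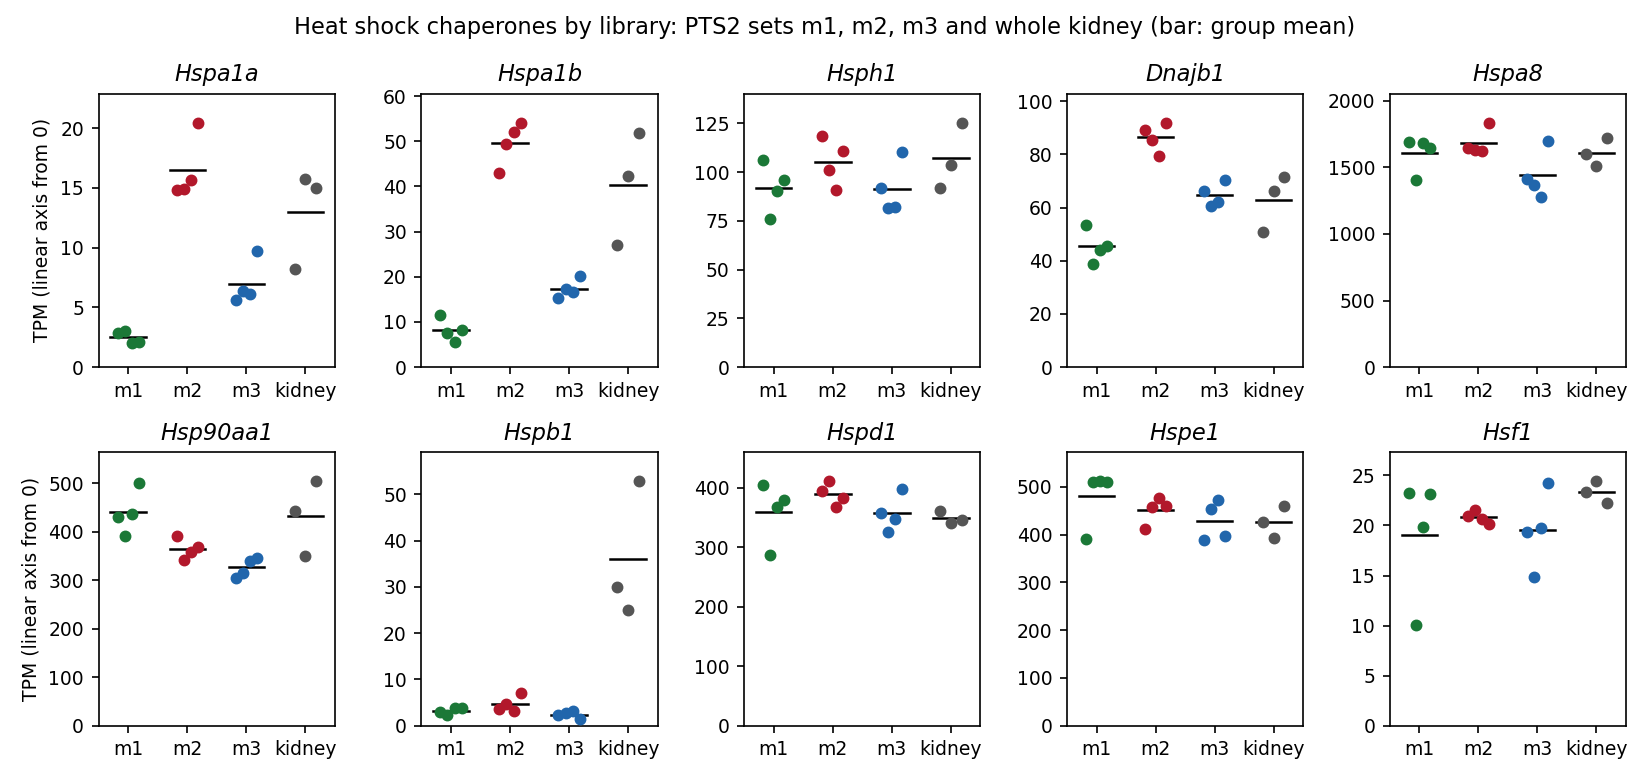
TPM of each of the 10 genes on linear axes from 0, with 1 point per library (m1, m2 and m3: 4 PTS2 libraries each; kidney: 3 whole kidney libraries) and a bar at each group mean. Hspa1a, Hspa1b and Dnajb1 step up from m1 to m3 to m2 with no overlap between sets, and Hspb1 is high only in the 3 kidney libraries.

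Hspa1a (ENSMUSG00000091971) and Hspa1b (ENSMUSG00000090877) encode the stress-inducible cytosolic HSP70, which unstressed cells hold at low levels. Their starts lie 12918 bases apart on mouse chromosome 17, on the minus strand of GRCm38.p6, and the 250 bases before each start, from RefSeq, are shown because they hold a match to a short heat shock motif and show how alike the copies are. The 250 bases of Hspa1a lie at chr17:34972157-34972406 and those of Hspa1b at chr17:34959239-34959488, written 5′ to 3′ along the gene, and capitals mark GAANNTTC, a pair of inverted GAA units.

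Hspa1a: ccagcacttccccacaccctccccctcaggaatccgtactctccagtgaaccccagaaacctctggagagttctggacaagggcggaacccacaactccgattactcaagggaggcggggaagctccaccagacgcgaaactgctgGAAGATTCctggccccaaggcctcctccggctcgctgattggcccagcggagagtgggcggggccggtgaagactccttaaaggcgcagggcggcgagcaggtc

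Hspa1b: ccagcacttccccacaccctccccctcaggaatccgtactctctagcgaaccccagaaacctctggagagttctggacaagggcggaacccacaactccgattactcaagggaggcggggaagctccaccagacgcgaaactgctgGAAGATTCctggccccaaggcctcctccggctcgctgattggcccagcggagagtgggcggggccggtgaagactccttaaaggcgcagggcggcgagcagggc

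Of these 250 bases 247 were identical, and the differences were C44T, T47C and T249G, counted from 1 at the 5′ end of the printed sequence with the Hspa1a base first. Both copies held GAAGATTC at bases 147 to 154, which is 104 to 97 bases before the start. Promoter windows of 300 bases (250 before to 50 after the start) were searched for 4 motifs: GAANNTTC, TTCNNGAA, TTCNNGAANNTTC and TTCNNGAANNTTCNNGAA, on both strands. The longer ones contain the shorter. Over 32851 RefSeq windows in the table, 15.1% held GAANNTTC or TTCNNGAA, 0.603% held TTCNNGAANNTTC and 0.0244%, or 8 windows, held the longest. Of the 10 genes, 7 had a window, of which 6 held at least one of the short motifs and 3 (Hsph1, Hspd1 and Hspe1) held TTCNNGAANNTTC. A match describes letters and does not show that HSF1 bound there.

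The level of both HSP70 copies differed several-fold between tubule sets of the same segment. Hspa1b stood at 11.44, 7.63, 5.49 and 8.18 TPM in the libraries of m1, at 42.88, 49.38, 52.00 and 54.07 TPM in m2, and at 15.34, 17.19, 16.62 and 20.16 TPM in m3. Hspa1a stood at 2.88, 3.00, 2.02 and 2.14 TPM in m1, at 14.85, 14.87, 15.69 and 20.45 TPM in m2, and at 5.58, 6.37, 6.14 and 9.70 TPM in m3. For both genes every m2 library was above every m3 library, and every m3 library above every m1 library. The mean of Hspa1b in m2 was 6.06 times that in m1 and 2.86 times that in m3, and for Hspa1a these ratios were 6.56 and 2.37. On the log2(TPM + 1) scale, which understates changes of low genes, Hspa1b was 2.49 higher and Hspa1a 2.31 higher in m2 than in m1. These were the fifth and seventh highest differences among 11300 genes, and in that contrast 5.30% of all genes had libraries that did not overlap and limma called 0.540%. Against m1, m3 was higher by 1.03 for Hspa1b and by 1.16 for Hspa1a. Genes whose libraries did not overlap made up 9.04% of all genes in m3 against m1 and 9.60% in m3 against m2.

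Whole kidney spread across the tubule sets for both copies. Hspa1b stood at 27.01, 42.26 and 51.77 TPM and Hspa1a at 8.18, 15.76 and 15 TPM in the 3 kidney libraries. These ranges overlapped m2 for both genes and lay wholly above m1, while m3 lay below kidney for Hspa1b and overlapped it for Hspa1a. Libraries did not overlap for 50.3% of all genes between m1 and kidney, 56.1% between m2 and kidney and 53.6% between m3 and kidney. Over all 12 tubules, the log2 differences from kidney were -0.99 for Hspa1b and -0.80 for Hspa1a, given without a test because the tubule values chose both genes.

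The ratio between the copies moved little next to their level. TPM of Hspa1b was 2.08 to 3.97 times that of Hspa1a over the 15 libraries, with a median of 2.73 in PTS2 and 3.30 in whole kidney. In the longest coding transcript of Hspa1b (GENCODE M21), 62.3% of all stretches of 50 bases also occurred in Hspa1a, and 49.9% of stretches of 100 bases did. How reads were divided between the copies in these stretches is not given in the sources used here, so the level of each copy is uncertain. Their sum depends less on that division, though TPM are scaled to transcript length and these transcripts differ, at 2967 (Hspa1a) and 2803 bases (Hspa1b). The sum was 10.7 ± 2.79 TPM in m1, 66.0 ± 7.00 in m2, 24.3 ± 3.88 in m3 (SD, n = 4 each) and 53.3 ± 16.3 in whole kidney (SD, n = 3).

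**Figure D2:**
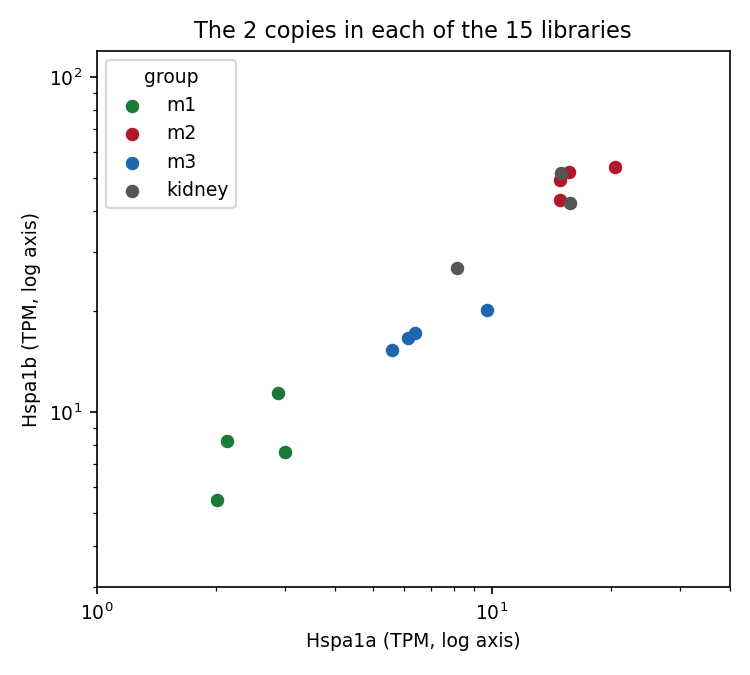
TPM of Hspa1b against TPM of Hspa1a on log axes, with 1 point for each of the 15 libraries coloured by group. The libraries of m1, m3 and m2 form separate clusters along 1 line, with Hspa1b 2.08 to 3.97 times Hspa1a in every library 1 kidney library between m3 and m2 in Hspa1b, and the other kidney libraries beside those of m2.

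Dnajb1 (ENSMUSG00000005483), the J protein that brings clients to HSP70 and is itself induced by heat, had the same order of sets with a smaller span. It stood at 53.43, 38.97, 43.92 and 45.70 TPM in m1, at 89.13, 85.43, 79.31 and 91.88 TPM in m2, and at 66.38, 60.49, 62.05 and 70.35 TPM in m3. As for the HSP70 copies, the 3 sets did not overlap. That order was read from the HSP70 copies in these same libraries, so a count of genes that share it is no test. With the HSP70 copies included, 11 of 11300 genes (0.0973%) had every m2 library above every m3 library and every m3 library above every m1 library. Other orders were not counted. The count was 11 without m3 replicate 3 and 17 without m3 replicate 4. Besides the 3 heat shock genes the 11 were Cdk5rap1, Cnot11, Cyp2d9, Efna1, Hao2, Osgin1, Rpl3 and Sult1d1. The mean of Dnajb1 in m2 was 1.90 times that in m1, a log2 difference of 0.92 that is given without a test.

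Dnajb1 was higher in m3 than in m1 by 0.51 ± 0.09 on the log2 scale (SE; limma, Benjamini-Hochberg adjusted p = 0.0123), in a comparison that shares the m1 libraries with the contrast above. Without m3 replicate 3 the difference was 0.53 (adjusted p = 0.0320) and without m3 replicate 4 it was 0.47 (adjusted p = 0.0311), and it passed the threshold of 0.05 with each library left out in turn. In m3 against m2 it was lower by 0.41 ± 0.09 (adjusted p = 0.0461), but 9 of the 12 fits with 1 library left out gave an adjusted p above 0.05, up to 0.149 (0.137 without m3 replicate 3, 0.0495 without m3 replicate 4), and the fit without a filter on low genes gave 0.114. Whole kidney, at 50.73, 66.30 and 71.63 TPM, overlapped m1 and m3 and lay below m2, where 56.1% of all genes did not overlap with kidney. Over all tubules the difference from kidney was 0.02 ± 0.22 (adjusted p = 0.937). Both promoter windows of Dnajb1 held none of the 4 motifs, and 0.407% of its stretches of 50 bases occurred in another gene.

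Hsph1 (ENSMUSG00000029657) encodes HSP110, a nucleotide exchange factor of HSP70 that is also heat-inducible, and it did not separate the sets. The 250 bases before its upstream start, at chr5:149636337-149636586 on the minus strand, are shown for comparison with the HSP70 copies, with capitals on TTCNNGAA.

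Hsph1: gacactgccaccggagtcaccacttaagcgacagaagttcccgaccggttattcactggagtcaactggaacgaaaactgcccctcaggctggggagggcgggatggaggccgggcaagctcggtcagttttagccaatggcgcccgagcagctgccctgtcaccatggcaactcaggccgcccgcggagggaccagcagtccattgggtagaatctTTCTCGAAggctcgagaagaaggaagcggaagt

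This motif, TTCTCGAA, lay 33 to 26 bases before the start, and a run of 3 units followed 36 to 48 bases after the start. Hsph1 stood at 106.08, 75.84, 90.10 and 95.83 TPM in m1, at 118.72, 101.25, 90.93 and 110.70 TPM in m2, at 91.92, 81.69, 81.93 and 110.30 TPM in m3, and at 92.08, 103.86 and 125.23 TPM in whole kidney. All 4 groups overlapped. The tested log2 differences were -0.15 ± 0.13 for PTS2 against kidney (limma adjusted p = 0.324), -0.01 ± 0.12 for m3 against m1 (adjusted p = 0.981) and -0.21 ± 0.12 for m3 against m2 (adjusted p = 0.634).

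Hspa8 (ENSMUSG00000015656), the constitutive HSP70 that handles clathrin uncoating and general folding, was about equal in PTS2 and whole kidney. It lay between 1408 and 1686 TPM in m1, 1621 and 1834 in m2, 1274 and 1701 in m3, and 1511 and 1719 in whole kidney. These ranges overlapped throughout, but m3 reached m2 only in m3 replicate 4, the other m3 libraries lying between 1274 and 1410 TPM. The log2 difference of m3 against m2 was -0.23 and did not pass (limma adjusted p = 0.333). Between PTS2 and kidney the difference was -0.04 ± 0.10 (adjusted p = 0.757). Of its stretches of 50 bases, 73.2% also occurred in another gene, most often the pseudogene Gm15459, with means of its own of 5.66 TPM (PTS2) and 5.73 TPM (kidney). In m2, where the inducible copies were highest, Hspa8 was 1681 ± 102 TPM (SD, n = 4), far above their sum.

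Hsp90aa1 (ENSMUSG00000021270), the stress-responsive isoform of cytosolic HSP90, ran opposite to the inducible HSP70 genes between m1 and the other sets. It stood at 430.34, 392.09, 436.25 and 500.11 TPM in m1, at 392.00, 342.55, 358.08 and 367.74 TPM in m2, and at 304.17, 314.52, 340.55 and 345.73 TPM in m3. Both m2 and m3 lay wholly below m1, although the highest m2 library and the lowest m1 library were nearly equal. In m3 it was lower than in m1 by 0.43 ± 0.08 on the log2 scale (SE; limma, adjusted p = 0.0123), by 0.45 without m3 replicate 3 (adjusted p = 0.0286), by 0.45 without m3 replicate 4 (adjusted p = 0.0149), and the call held with each library left out. So 2 of the 8 genes tested passed in m3 against m1, Dnajb1 upwards and Hsp90aa1 downwards, where 3.17% of all genes passed. Of those 358 genes 70.4% were higher in m3, and 53.6% and 52.8% after median-of-ratios rescaling and quantile normalization, under both of which the 2 calls held. In m3 against m2 it was 1 of 8, Dnajb1, where 1.97% of all genes passed. Whole kidney, at 442.00, 349.76 and 503.90 TPM, lay above m3 and overlapped m1 and m2. Between m3 and kidney 53.6% of all genes did not overlap. The log2 difference of PTS2 from kidney was -0.19 ± 0.13 for Hsp90aa1 (adjusted p = 0.215). Hsp90aa1 shared 58.5% of its 50-base stretches with other genes, mostly the pseudogene Gm12346, which had a mean of 1.35 TPM in PTS2. The constitutive isoform Hsp90ab1 stood at 1372 ± 92.6 TPM in PTS2 and 1376 ± 224 TPM in kidney. Its set means had the same order as those of Hsp90aa1, at 1457 (m1), 1367 (m2) and 1292 TPM (m3). The log2 difference of Hsp90ab1 in m3 against m1 was -0.17 and did not pass (limma adjusted p = 0.1565).

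**Figure D3:**
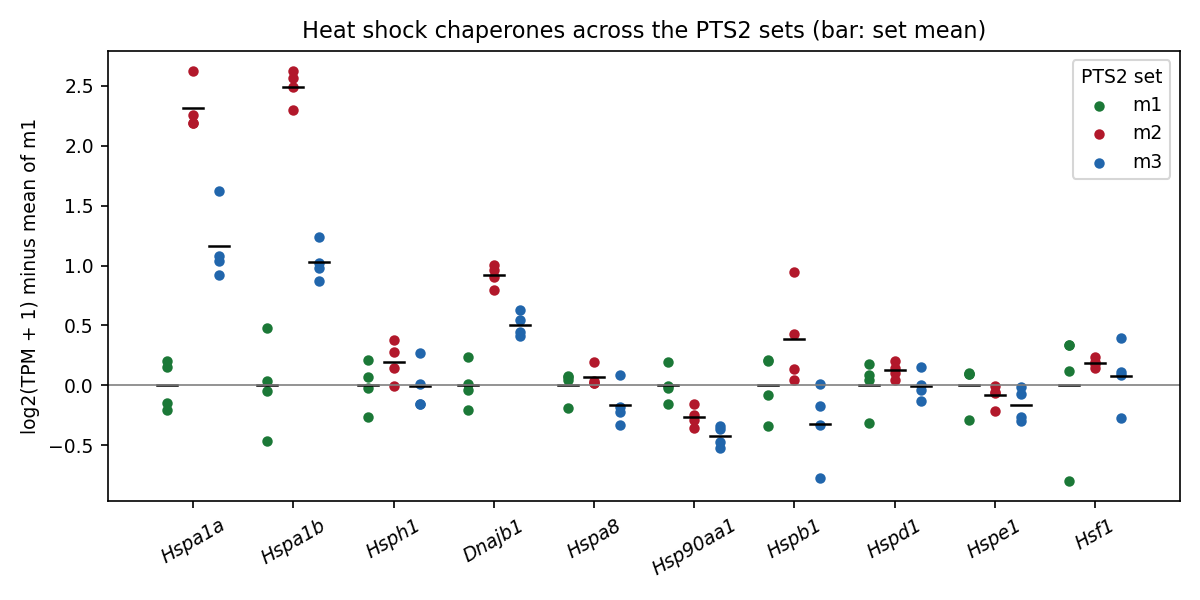
Log2(TPM + 1) of each gene in the 12 PTS2 libraries minus the mean of m1, with 1 point per library coloured by set and a bar at each set mean. Hspa1a, Hspa1b and Dnajb1 lie above 0 in every m2 and m3 library, Hsp90aa1 lies below 0 in all of them, and the other 6 genes overlap m1.

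Hspb1 (ENSMUSG00000004951) encodes HSP25, the small heat shock protein that holds unfolded chains and binds actin filaments, and it was the gene that set tubules apart from whole kidney. The 250 bases before its start, at chr5:135887669-135887918 on the plus strand, are shown because this gene gave the only call against kidney, with capitals on GAANNTTC.

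Hspb1: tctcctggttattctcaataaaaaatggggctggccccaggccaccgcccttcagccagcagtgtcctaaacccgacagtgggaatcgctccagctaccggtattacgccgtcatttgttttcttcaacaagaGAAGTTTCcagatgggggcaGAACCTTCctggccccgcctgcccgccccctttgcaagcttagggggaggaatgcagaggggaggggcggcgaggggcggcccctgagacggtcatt

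The window held GAAGTTTC 117 to 110 bases and GAACCTTC 97 to 90 bases before the start. Hspb1 stood at 2.93, 2.28, 3.81 and 3.77 TPM in m1, at 3.55, 4.59, 3.28 and 6.97 TPM in m2, at 2.29, 2.67, 3.18 and 1.42 TPM in m3, and at 30.07, 25.11 and 52.85 TPM in whole kidney. All 12 tubule libraries were below all 3 kidney libraries, and the kidney mean was 10.6 times the PTS2 mean. The log2 difference was -3.06 ± 0.27 (SE; limma, adjusted p = 6.794e-08), and -2.76 to -3.28 with 1 library left out. Of the 8 genes tested, 1 was called in this comparison, where 51.2% of all genes tested were called and 41.5% were called lower, and 1 of the 10 had libraries that did not overlap, as had 37.8% of all genes (32.0% with PTS2 lower).

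The markers of other cell types were also lower in PTS2. In the 10 marker lists other than that of the general proximal tubule, every marker that entered the fit was called lower in PTS2. For S1, distal convoluted tubule, intercalated cell and thin limb markers the filter fixed this direction. No such marker reached a mean of 1 TPM over the PTS2 libraries, so they entered only through kidney. The same held for part of the podocyte, fibroblast and smooth muscle, principal cell and macrophage markers. Besides the sums given above, S1 markers lay at 0.01 to 1.49 TPM against 699 to 780 in kidney, principal cell markers at 1.63 to 15.1 against 561 to 793, and intercalated cell markers at 0 to 0.32 against 103 to 114. Fibroblast and smooth muscle markers lay at 0.16 to 4.52 TPM against 104 to 120, and thin limb markers at 0 to 0.07 against 24.7 to 29.7. No marker gene was at 0 in all libraries of the 12. Their part in the level of Hspb1 was not tested, and in bulk samples fewer cells of a type and less RNA per cell cannot be told apart. In m3 replicate 3, where thick ascending limb markers reached 1441 TPM, Hspb1 was at 3.18 TPM, within the range of the other tubules. That is a value from 1 library, and the part of thick ascending limb cells in Hspb1 was not tested. The pseudogene Hsp25-ps1, which holds the 51.6% of 50-base stretches of Hspb1 that occur in another gene, had a mean of 0.041 TPM in PTS2 and 0.467 TPM in kidney. Among the sets, Hspb1 was higher in every m2 library than in every m3 library, by a log2 difference of 0.71 that did not pass (m3 against m2, adjusted p = 0.188).

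Hspe1 (ENSMUSG00000073676) and Hspd1 (ENSMUSG00000025980) encode HSP10 and HSP60, which form the folding chamber of the mitochondrial matrix. The genes lie head to head on chromosome 1, with the Hspe1 start and 1 of the 2 Hspd1 starts that RefSeq lists 216 bases apart on opposite strands. The 250 bases before Hspe1, at chr1:55087898-55088147 on the plus strand, are shown because they hold the longest run of heat shock units found for these genes, marked in capitals.

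Hspe1: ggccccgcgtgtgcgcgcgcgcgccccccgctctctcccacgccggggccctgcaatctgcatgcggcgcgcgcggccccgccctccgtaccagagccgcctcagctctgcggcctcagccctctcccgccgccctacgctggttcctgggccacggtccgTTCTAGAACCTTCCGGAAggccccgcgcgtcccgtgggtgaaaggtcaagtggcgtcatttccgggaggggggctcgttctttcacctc

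This run, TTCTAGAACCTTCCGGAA, lay 89 to 72 bases before the Hspe1 start and, on the other strand, 144 to 127 bases before that Hspd1 start. The 8 windows among 32851 with a run of this length, beginning with TTC or GAA, included both of theirs and that of Chordc1, an HSP90 co-chaperone. Hspe1 lay between 391 and 511 TPM in m1, 411 and 477 in m2, 389 and 472 in m3, and 394 and 459 in kidney. Hspd1 lay between 287 and 404 TPM in m1, 368 and 410 in m2, 325 and 397 in m3, and 340 and 361 in kidney, so that every m2 library was above every kidney library for Hspd1. Such a gap was common, since 56.1% of all genes did not overlap between m2 and kidney. Both genes overlapped across the sets, with m2 against m1 differences of -0.08 for Hspe1 and 0.12 for Hspd1, where the HSP70 copies differed by more than 2. Against kidney the log2 differences were 0.08 ± 0.09 (adjusted p = 0.479) and 0.07 ± 0.09 (adjusted p = 0.527). After median-of-ratios rescaling, which moves the median of all genes, these became 0.35 (adjusted p = 0.0389) and 0.34 (adjusted p = 0.00149).

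Hsf1 (ENSMUSG00000022556), the transcription factor itself, had 23.27, 10.05, 19.86 and 23.16 TPM in m1, 20.97, 21.56, 20.67 and 20.16 TPM in m2, 19.34, 14.85, 19.76 and 24.23 TPM in m3, and 23.33, 24.41 and 22.25 TPM in whole kidney. The m2 libraries lay close together and inside the range of m1, with m1 replicate 2 the lowest of all 15. The m2 libraries also lay wholly below those of kidney, and 56.1% of all genes did not overlap between these groups. The difference from kidney was -0.25 ± 0.19 (adjusted p = 0.276), and none of the comparisons between sets passed. Transcript levels of Hsf1 say nothing of its activity, which is set largely by trimer formation and phosphorylation of the protein.

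Among the 8 genes tested against kidney, Hspb1 was the only one to pass. The log2 differences of the other 7 ran from -0.25 to 0.08, and the untested HSP70 copies stood further below kidney. The median over all 12039 genes tested was -0.27, so relative to it Hspe1 stood at 0.35, Hspd1 at 0.34, Dnajb1 at 0.29 and Hspa8 at 0.23, while Hspa1a stood at -0.53 and Hspa1b at -0.72. Of the 6161 genes called, 18.9% were higher in PTS2. This split depended on the scaling, at 47.1% after median-of-ratios rescaling and 64.7% after quantile normalization. The lower level of Hspb1 in PTS2 passed under both, at -2.81 and -2.68.

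**Figure D4:**
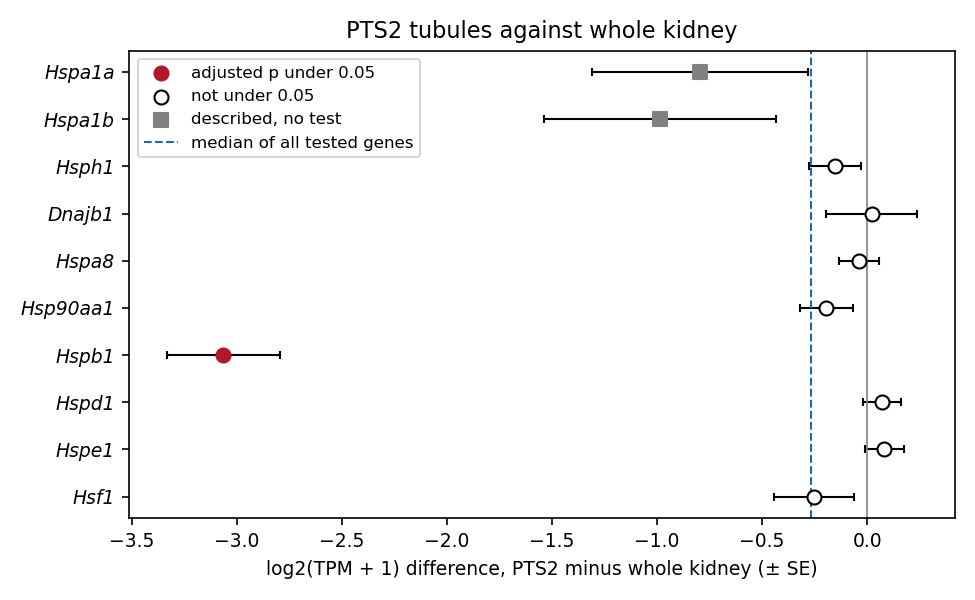
Log2(TPM + 1) difference of PTS2 minus whole kidney for each of the 10 genes, with bars of ±1 standard error from limma (12 against 3 libraries), a red point where the adjusted p was under 0.05, grey squares for the untested HSP70 copies, and a dashed line at the median of all genes tested, -0.27. Hspb1 at -3.06 is the only red point, and Hspa1a and Hspa1b have the widest bars.

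None of the 5 other genes most like the HSP70 pair across tubules encodes a chaperone. Likeness was the root mean square difference between centred log2(TPM + 1) profiles over the 12 PTS2 libraries, taken against the summed HSP70 copies for the 6446 genes whose mean reached 10 TPM, where a flat profile would give 1.06. Leaving out the members, the 5 nearest were Cdk5rap1 at 0.472, Hao2 at 0.612, Ugt8a at 0.691, Osgin1 at 0.722 and Pigr at 0.724. Among the members Dnajb1, at 0.696, would have ranked among these 5, while Hsph1 ranked 753 and Hsp90aa1 6012. Cdk5rap1, an enzyme that modifies mitochondrial tRNA, had 9.84 ± 4.53 TPM in m1, 62.2 ± 2.43 in m2, 17.7 ± 0.526 in m3 (SD, n = 4 each) and a mean of 22.2 in kidney. Hao2, a peroxisomal oxidase of hydroxy acids, had set means of 226 (m1), 535 (m2) and 334 TPM (m3). The 12 libraries are shared by all these profiles and fall into 3 sets, so a low value says only that the sets have a like order and span.

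Other chaperone genes were taken from 8 lists with 90 genes, of which 81 were tested between PTS2 and kidney. Of these, 7 were higher and 32 lower, with a median of -0.20 against -0.27 over all genes. The scaling turned this split: 30 were higher and 16 lower after median-of-ratios rescaling, and 20 higher and 25 lower after quantile normalization. A count over all 81 therefore gives no direction, but 2 lists kept theirs.

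The list of endoplasmic reticulum chaperones, which also holds genes of the unfolded protein response such as Ddit3 and Xbp1, was lower in tubules. Of 17 tested, 15 were lower and none higher, with a median of -0.53, and after median-of-ratios rescaling and quantile normalization 9 and 16 were lower with none higher. Of all 12039 genes tested, 4996 were lower as deposited, and 3006 and 2273 under these scalings. Sdf2l1, a partner of BiP, had 27.9 ± 2.34 TPM in PTS2 and 76.9 ± 23.6 in kidney, a log2 difference of -1.39 (limma adjusted p = 9.568e-08). Hspa5, which encodes BiP, the HSP70 of this compartment, had 607 ± 59.3 TPM in PTS2 and 953 ± 176 in kidney, and Ddit3, a transcription factor of the unfolded protein response, differed by -1.02 (adjusted p = 0.000202). The markers of non-proximal cells given above differ between the same libraries, and their part in this was not tested.

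Mitochondrial chaperones and proteases went the other way, with 4 of 10 tested higher and none lower, a median of 0.16, and 9 and 7 higher under the other scalings. Of all genes, 9.68% were higher as deposited, and 22.2% and 34.6% under those scalings. Trap1, the mitochondrial HSP90, had 406 ± 47.9 TPM in PTS2 and 258 ± 2.81 in kidney, a log2 difference of 0.64 (adjusted p = 6.078e-05). Clpx, which unfolds clients of the matrix protease, differed by 0.49 (adjusted p = 0.0106).

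In the other lists the counts moved with the scaling or were small. Of 6 other cytosolic HSP70, HSP110 and HSP90 genes 2 were lower, led by Hspa12a at -2.09 (adjusted p = 1.896e-07), and 1 was higher and 1 lower under each other scaling. Of 9 J proteins 1 was higher and 4 lower, among them Dnajc7 at -0.62 (adjusted p = 3.935e-06) and Dnajb4 at -0.59 (adjusted p = 0.0194), and under each other scaling 3 were higher and 2 lower. Of 20 co-chaperones 8 were lower, with Bag4 at -1.21 (adjusted p = 5.728e-06) and Fkbp5, which slows steroid receptor folding and is induced by glucocorticoids, at -1.19 (adjusted p = 0.000245). Rescaling by median-of-ratios gave 6 higher and 2 lower co-chaperones. Of the 8 subunits of CCT, the chaperonin of the cytosol, only Cct4 was lower, by 0.24 on the log2 scale (adjusted p = 0.00241), and 5 were higher after median-of-ratios rescaling. Of 6 genes of the HSF family and its regulators 1 was lower, Ier5 at -1.49 (adjusted p = 2.351e-06).

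**Figure D5:**
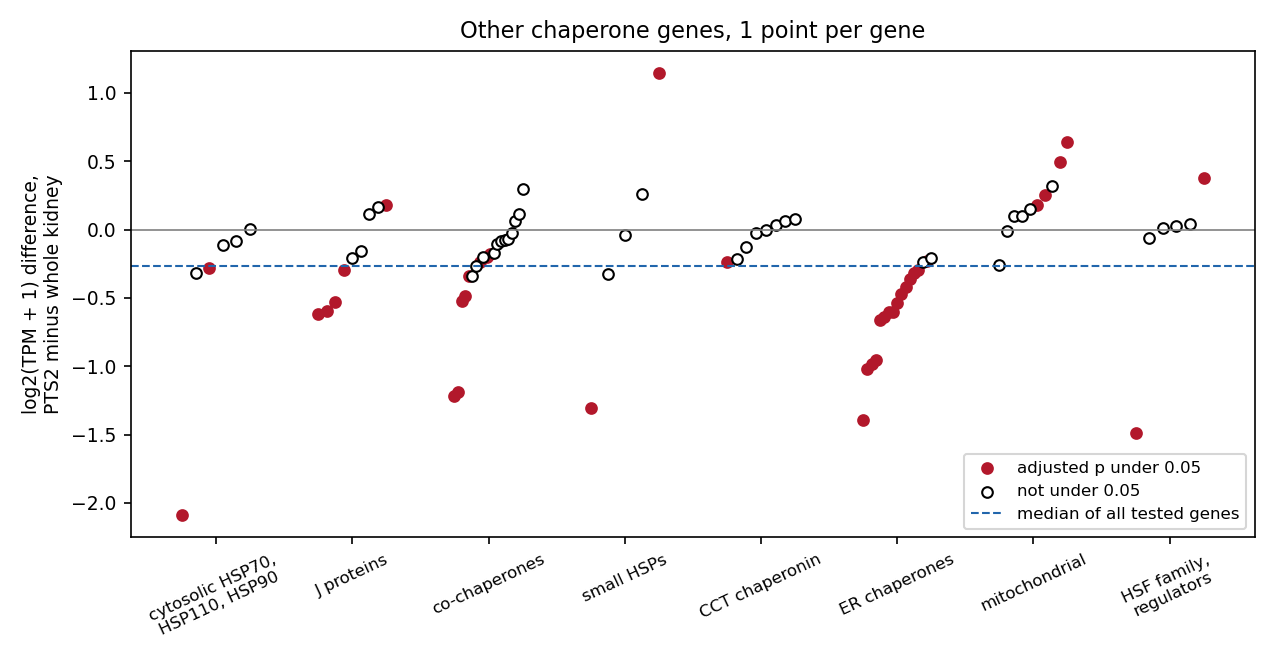
Log2(TPM + 1) difference of PTS2 minus whole kidney for 81 chaperone genes in 8 lists, with 1 point per gene, filled where the limma adjusted p was under 0.05, a solid line at 0 and a dashed line at the median of all genes, -0.27. The 17 genes of the endoplasmic reticulum list, which includes genes of the unfolded protein response, all lie below 0, and 4 mitochondrial genes are filled above 0.

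Small heat shock proteins other than Hspb1 did not share its difference from kidney as a group. Of 5 tested, 1 was lower, Hspb8 at -1.30 (adjusted p = 0.000175, means of 0.571 TPM in PTS2 and 2.91 in kidney), and 1 was higher, Cryaa at 1.15 (adjusted p = 0.00706). Hspb8 entered the fit only through kidney, its PTS2 mean being below the filter of 1 TPM. Quantile normalization gave 3 higher and none lower. Cryab, a small heat shock protein abundant in muscle and lens, had 153 ± 56.0 TPM in PTS2 and 180 ± 47.2 in kidney. Of 4 genes of the osmotic response tested, 3 were lower in tubules under each scaling, among them Slc5a3, the inositol transporter, at -3.40 (adjusted p = 2.915e-07) and Nfat5, the osmotic transcription factor, at -1.45 (adjusted p = 8.371e-09).

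Between the sets, calls among these other chaperones moved with the scaling. Of 79 tested, 1 was called in m2 against m1, where 0.540% of all genes were called. In m3 against m1 there were 3, all higher, while after either rescaling none was higher and 2 other genes were lower. In m3 against m2 there were 3. Of all genes, 3.17% were called in m3 against m1 and 1.97% in m3 against m2. Dnajb4, a J protein close to Dnajb1, had the same order of set means, at 14.2 (m1), 24.7 (m2) and 20.1 TPM (m3). Its difference of 0.48 in m3 against m1 (adjusted p = 0.0350) did not pass after median-of-ratios rescaling (0.0539) or quantile normalization (0.0734), nor without m3 replicate 3 (0.0628) or m3 replicate 4 (0.0681). Bag3, an HSP70 co-chaperone of stress-induced autophagy, had means of 7.39, 11.0 and 7.18 TPM, and its difference of -0.56 in m3 against m2 (adjusted p = 0.0477) gave 0.0546 and 0.0967 without those libraries. Xbp1, the transcription factor of the unfolded protein response, was at 157 ± 11.4 TPM in m2 and 266 ± 38.4 in m3 (SD, n = 4 each). It was higher in m3 by 0.75 (adjusted p = 0.000657), and by 0.74 (adjusted p = 0.00367) and 0.66 (adjusted p = 0.000608) without those libraries.

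Immediate early genes, which respond to handling and dissociation of tissue, were counted beside the HSP70 values. Of 7 tested, 7 were lower in PTS2 than in kidney, with Btg2 at -2.83 (adjusted p = 2.237e-07) and Jun at -2.36 (adjusted p = 4.114e-05), although 4 were lower after quantile normalization. Among all genes these shares were 41.5% and 18.9%. Egr1, with means of 0.148 TPM in PTS2 and 5.11 in kidney, entered the fit only through kidney. The summed TPM of the immediate early genes lay between 46.0 and 55.9 in m1, 55.7 and 72.9 in m2, 47.4 and 65.5 in m3, and 129 and 237 in kidney. The set means of this sum were 52.4 (m1), 63.8 (m2) and 55.4 TPM (m3), the same order as for the HSP70 copies. The m2 sums overlapped those of m1 narrowly and those of m3, and none of the 6 genes tested between sets was called. Their part in the HSP70 levels was not tested.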

How the data were processed

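Gene expression was measured by RNA-Seq in 12 PTS2 and 3 whole kidney libraries, with cDNA made by the SMART-Seq V4 kit, per the labels' protocols. TPM values for 47069 genes were deposited by the authors in a single table, and each library sums to 1000000 apart from rounding. The submitters' processing notes name STAR 2.5.1b, RSEM 1.2.31 and GRCm38.p5, with roles not given. The annotation release and read length are not given in the sources used here. TPM are not counts and keep no depth, so no count test, counting interval or detection floor was computed.

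Libraries were grouped by their description labels. Log2(TPM + 1) was tested with limma 3.58.1 in R 4.3.3 (mean-variance trend, Benjamini-Hochberg over all genes tested, threshold 0.05) for genes whose mean reached 1 TPM. PTS2 against kidney (12039 genes) had the set as a correlated block (correlation 0.0669), and the sets were contrasted in one fit of 12 libraries (11300 genes). The fits were run on simulated data with independent libraries, which does not test them on libraries that share a source. A test of Hspa1a and Hspa1b against kidney was planned, but their values are described without it. The count of genes in the order of the sets without m3 replicate 3 or 4 was added after seeing the data. Tables were made in Python 3.11.15 with pandas 2.3.3, and figures with matplotlib 3.10.9. Promoter windows are RefSeq's (GRCm38.p6), and 50-base stretches were compared between GENCODE M21 transcripts.

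The members, gene lists and tests were chosen with earlier results of these data known. Named genes were the members, 2 genes per list with the largest differences from kidney and 2 with the largest between sets, and the 5 genes nearest to the HSP70 pair in profile. Some genes that met this rule are left out of the text, and Hspa5, Hsp90ab1, Cryab and Chordc1 were added after their values were seen. Alternatives were a pseudocount of 0.1, no filter, a filter at 10 TPM, median-of-ratios rescaling, quantile normalization, the HSP70 copies summed, 1 mean per set, the replicate block, independent libraries in place of the within-set correlation, and each library left out.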

Additional observations from a re-analysis of the deposited data

Results flagged for a closer look

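Within the 3 tubule sets, 30 groups of 4 libraries (10 genes in each set) were searched for a library far from the other 3. The gap to the nearest library, divided by the range of the group, was above Dixon's critical value in 4 of them, where chance gives about 1 in 20. Hspa1a in m2 replicate 4 was at 20.45 TPM, against 15.69 TPM for the next library. Hspa8 in m1 replicate 2 was at 1407.64 TPM, below the next at 1647.39 TPM, and Hspa8 in m2 replicate 4 was at 1833.81 TPM, above the next at 1642.67 TPM. Hspe1 in m1 replicate 1 was at 390.75 TPM, below the next at 509.90 TPM. Counted over the 10 genes, m3 replicate 4 was the highest of its set for 8, m1 replicate 1 for 6 and m2 replicate 4 for 5, while m1 replicate 2 was the lowest of its set for 7.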

How the results depend on the processing

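The lower level of Hspb1 in PTS2 and the m3 against m1 calls of Dnajb1 and Hsp90aa1 passed under each alternative in which they were tested. Hspb1 falls below the filter at 10 TPM, which left 0 members called against kidney. More were called there after median-of-ratios rescaling (3, with Hspd1 and Hspe1), quantile normalization (2, with Hsp90aa1 at -0.33, adjusted p = 0.0427) and with 1 mean per set (2, with Hsf1 at -0.25, adjusted p = 0.0345). In m3 against m2, no filter left 0 members called, and leaving out libraries 0 to 1.

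Genes called against kidney numbered 6161, and 9399 with no filter, 3113 with a filter at 10 TPM and 4761 to 6712 with 1 library left out. In m2 against m1 there were 61, and 105 by median-of-ratios, 107 by quantile normalization and 37 to 135 by leaving out libraries. In m3 against m1 there were 358, and 178 with no filter and 160 (without m3 replicate 3) to 771 (without m1 replicate 1). In m3 against m2 there were 223, and 111 with no filter and 119 to 313 by leaving out libraries.

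Signs of differences that did not pass turned against kidney by median-of-ratios for Hsph1 (0.11), Hspa8 (0.23), Hsp90aa1 (0.07) and Hsf1 (0.00), and by quantile normalization for Hspd1 (-0.02), Hspe1 (-0.05) and Hsf1 (0.11). In m3 against m1, Hsf1 turned to -0.00 and -0.03 under these. With libraries left out, the ranges crossed 0 against kidney for Dnajb1 (-0.12 to 0.12) and Hspa8 (-0.08 to 0.01), in m3 against m1 for Hsph1 (-0.10 to 0.06), Hspd1 (-0.11 to 0.06) and Hsf1 (-0.18 to 0.20), and in m3 against m2 for Hsf1 (-0.21 to 0.01). The untested Hspa1a difference of m2 from m1 was 2.67 with a pseudocount of 0.1 and 2.54 with the copies summed. The cause of these shifts was not tested.

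The replicate numbers were not taken to pair libraries, since the labels give no shared source and not every same-numbered PTS2 pair deviated together: the correlation was over 0.1 in 7 of 12 (lowest 0.0209, mean 0.138), against 2 of 36 other pairs (mean -0.0463). In 19 of 24 cases a library correlated best with its own number in another set, a hint from the data that the numbers share something. A fit with a replicate block called 6292 genes against kidney, 307 in m2 against m1, 838 in m3 against m1 and 416 in m3 against m2. The block left the members called at 1, 2 and 1 and turned Dnajb1 against kidney to -0.00.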
